A study of Mus musculus with 2 samples.

Results

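The glycolysis and hypoxia genes described here are 37 of the 33696 genes listed in both matrices, found by gene symbol. They comprised 4 transporters of glucose and lactate, 18 glycolytic enzymes, 3 regulatory kinases, 4 genes of oxygen sensing and 8 further genes known as targets of the hypoxia response. One symbol, Aldoa, stood for 2 gene identifiers, whose counts were added, so the 37 members took 38 rows. The rule used gene symbols and no measured value, and the list was drawn up with earlier results of these data known.

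Single cells were profiled from abdominal aortas of 5-month-old male C57BL/6J mice. The Control library came from mice given normal saline. The AngII+HS library came from mice that received angiotensin II (AngII) from osmotic minipumps at 1500 ng/kg/min for 28 days and drank water with 0.9% NaCl and 0.2% KCl, the high salt (HS) arm. Each condition was 1 library, described in one place as tissue pooled from 5 mice and in another as 1 Control mouse and 2 AngII+HS mice, so no value below has a replicate and no comparison has a test. Intervals cover counting error only, at the 95% level. The barcode list recorded with each sample had as many entries as the matrix of the other sample, 24804 with Control and 11448 with AngII+HS, and the matrices were used as recorded; an exchange of the matrices would turn every direction given between the libraries.

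After filtering, Control held 10269 cells with a median of 7274 unique molecular identifiers (UMIs, counted molecules) and AngII+HS held 19734 cells with a median of 3066. Marker genes gave 12 cell types, among them vascular smooth muscle cells (VSMCs, 5228 in Control and 846 in AngII+HS), fibroblasts (2609 and 4720), macrophages (500 and 4513), neutrophils (99 and 4658) and vascular endothelial cells (VECs, 838 and 1203). Each of these 5 types carried its own 5 markers in both libraries. Levels are given as CPM, a member's UMIs scaled to the total UMIs of the cell type, and a ratio is the log2 of the AngII+HS level over the Control level. The counting program named with the files includes intronic reads by default, so levels are compared between cells and not between genes.

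Glycolysis splits glucose into pyruvate in the cytosol, and lactate dehydrogenase can turn the pyruvate into lactate. When oxygen is short, the prolyl hydroxylases of the Egln family slow down, hypoxia-inducible factors such as Hif1a accumulate, and they bind short DNA elements near glucose transporter, glycolytic enzyme and stress genes. Macrophages also use this response when they are activated, and VECs of the artery wall use glycolysis for much of their energy supply.

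The letters around transcription starts were read for the members, because hypoxia-inducible factors are known to bind ACGTG and GCGTG. RefSeq gave start sites for 34 of the 37 members (build GRCm38.p6), and Slc2a3, Epas1 and Ndrg1 had none. The motifs were searched on both strands in the 250 bases before each start, and a palindromic CACGTG was counted on each strand. At least 1 match was present at 39 of 47 member starts (83.0%), against 38.6% of 32851 promoter windows of the same length. Members were listed partly as known targets of the hypoxia response, and the 32851 windows were not matched for base content, so these shares are no test. A match is a run of letters and not a measured binding site. The 4 windows below belong to the members with the largest ratios in macrophages, and capitals mark the matches.
Egln3, chr12:54203875-54204124, minus strand: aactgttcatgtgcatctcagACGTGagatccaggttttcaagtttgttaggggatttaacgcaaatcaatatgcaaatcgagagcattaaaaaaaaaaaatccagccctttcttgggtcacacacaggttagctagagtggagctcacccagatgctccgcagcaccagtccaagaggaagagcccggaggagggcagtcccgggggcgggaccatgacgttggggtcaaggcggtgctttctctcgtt
Ankrd37, chr8:45999851-46000100, minus strand: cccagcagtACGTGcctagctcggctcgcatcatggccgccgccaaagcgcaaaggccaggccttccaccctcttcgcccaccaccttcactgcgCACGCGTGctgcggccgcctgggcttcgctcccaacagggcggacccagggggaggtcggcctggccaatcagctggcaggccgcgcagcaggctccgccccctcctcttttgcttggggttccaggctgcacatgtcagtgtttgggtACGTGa
Slc16a3, chr11:120948817-120949066, plus strand: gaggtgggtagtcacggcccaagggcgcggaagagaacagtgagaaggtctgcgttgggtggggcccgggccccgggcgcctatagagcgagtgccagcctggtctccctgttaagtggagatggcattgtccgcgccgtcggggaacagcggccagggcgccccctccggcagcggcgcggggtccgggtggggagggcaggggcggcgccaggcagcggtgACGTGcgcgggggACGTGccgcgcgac
Bnip3, chr7:138909507-138909756, minus strand: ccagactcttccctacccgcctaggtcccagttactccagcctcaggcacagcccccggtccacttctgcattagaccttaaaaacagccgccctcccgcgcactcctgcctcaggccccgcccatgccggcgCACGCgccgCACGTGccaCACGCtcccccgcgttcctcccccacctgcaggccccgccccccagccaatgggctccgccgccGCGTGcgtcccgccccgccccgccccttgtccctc
Egln3 had 1 match, Ankrd37 had 4, Slc16a3 had 2 and Bnip3 had 5. Of the 15 members that were at least 2-fold higher in AngII+HS macrophages with an interval above 0, 14 had a match at a start and Tpi1 had none. Of all 34 members with a start, 31 had one, a like share.

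Summed over the 37 members, the level was 3157 CPM in all Control cells and 3714 CPM in all AngII+HS cells. The sum was unequal between cell types. In Control it was highest in neutrophils (4545 CPM, interval 4295 to 4806, from 99 cells) and next in VSMCs (3291 CPM) and VECs (3289 CPM), whose intervals overlapped. Macrophages ranked 7 of 11 types in Control, at 2260 CPM (2198 to 2323). In AngII+HS macrophages had the highest sum, at 4823 CPM (4792 to 4854), above neutrophils (3750 CPM). The 111 AngII+HS cells of a cluster named erythroid had 4504 CPM, but the name holds poorly for them. Their 5 erythroid markers summed to 41864 CPM, against 597811 CPM in the 39 Control cells, and their macrophage markers to 1309 CPM, against 132 CPM. No cluster took this name under any of 4 other ways of filtering and clustering. B cells held the lowest sum in AngII+HS, at 1500 CPM, and stood next to lowest in Control, at 1233 CPM, above only those 39 erythroid cells.

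**Figure D1:**
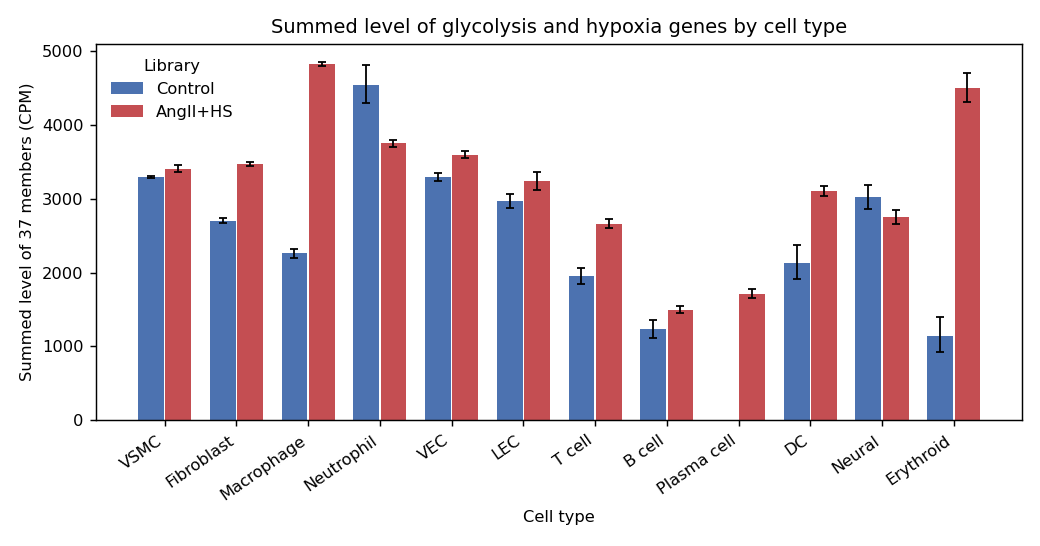
Summed level of the 37 members (CPM, linear axis) by cell type, with 1 bar per library and 95% counting intervals; plasma cells were found in AngII+HS alone. Macrophages go from 2260 CPM in Control to 4823 CPM in AngII+HS, and VSMCs stand at 3291 and 3407 CPM.

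Single members stood highest in different cell types, counted among types with at least 100 cells and without the erythroid cluster. The 99 neutrophils and 32 dendritic cells of Control fell below that limit, so the libraries were ranked over unequal sets of types. In Control the highest type was VSMCs for 10 members, neural cells for 8 and T cells for 5. In AngII+HS it was macrophages for 11, neutrophils for 7, and fibroblasts and neural cells for 5 each. With the erythroid cluster counted, it was highest for 7 of the members and macrophages for 5. Among the ranked types, Hif1a was highest in VSMCs in Control, at 263 CPM against 212 CPM in fibroblasts. It was highest in macrophages in AngII+HS, at 742 CPM against 517 CPM in neutrophils. The Control neutrophils left out of this ranking had more Hif1a than Control VSMCs, as given below. VECs held the highest Hk1 in both libraries, 151 CPM in Control and 124 CPM in AngII+HS. They also held the highest Ddit4, an inhibitor of growth signalling by mTOR, at 128 and 151 CPM, with an interval overlapping that of lymphatic endothelial cells in Control. Lymphatic endothelial cells held the highest Pfkfb3, at 170 and 112 CPM, with intervals overlapping those of Control macrophages and AngII+HS VECs. Pfkm, the muscle form of phosphofructokinase, was highest in VSMCs, at 16.5 and 17.9 CPM, with intervals overlapping those of neural cells. Pfkp, the platelet form, was highest in T cells in Control (153 CPM) and in dendritic cells in AngII+HS (210 CPM). P4ha1 was highest in fibroblasts, at 241 and 177 CPM, and in AngII+HS its interval overlapped that of VSMCs.

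Hk2, Gapdh, Hif1a and Ndrg1 were among the 5 members with most UMIs in both libraries, joined by P4ha1 in Control and Pkm in AngII+HS. Hk2 gave 11.02% of the members' UMIs in Control and 8.31% in AngII+HS. Gapdh gave 10.1% and 14.3%, and Hif1a 7.90% and 12.1%. Without these 6 genes the macrophage ratio was 0.90 (0.84 to 0.95), so the other 31 members carried much of it.

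Of the 5 main cell types, macrophages had the largest ratio of the sum, 1.09 (1.05 to 1.13), or 2.13-fold. The ratio was 0.36 (0.34 to 0.38) in fibroblasts and 0.13 (0.10 to 0.16) in VECs. It was 0.05 (0.03 to 0.07) in VSMCs, where scaling by trimmed means (TMM) turned it to -0.025. It was -0.28 (-0.36 to -0.19) in neutrophils, where TMM scaling turned it to 0.35. Without the 6 leading genes the ratio was 0.13 (0.10 to 0.16) in fibroblasts and -0.07 (-0.11 to -0.04) in VECs. On the same genes it was 0.09 in VSMCs and -0.30 in neutrophils. The VEC sum joined roles of unlike direction, enzymes at 0.63 and transporters at 0.38, but kinases at -0.30, oxygen sensing at -0.17 and hypoxia targets at -0.36. TMM scaling also moved the median gene, from -0.15 to 0.13 in macrophages, from -0.15 to 0.04 in fibroblasts and from 0.22 to 0.85 in neutrophils. Relative to the median gene, the sum was 1.24 higher in AngII+HS macrophages and 0.51 higher in fibroblasts. It was 0.08 higher in VECs, 0.04 higher in VSMCs and -0.50 in neutrophils. TMM scaling shifts the sum and the median gene alike, so it leaves this value unchanged by construction. Over the other alternatives this value ran from 0.041 to 0.11 in VECs and from 0.016 to 0.064 in VSMCs. In neutrophils it was -0.22 with free RNA subtracted and -0.29 with 1 UMI added.

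In macrophages all 37 members had at least 20 UMIs over both libraries. In AngII+HS 16 were at least 2-fold higher and 4 at least 2-fold lower, against 9.65% and 18.4% of the 13855 genes measured there (28% in either direction). Of the 16, Egln3, Ankrd37 and Aldoc reached 20 UMIs almost wholly through AngII+HS, where they were high, and the interval of Aldoc held 0. TMM scaling gave 20 higher and 2 lower. The members' median ratio was 0.81, and that of all genes was -0.15.

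**Figure D2:**
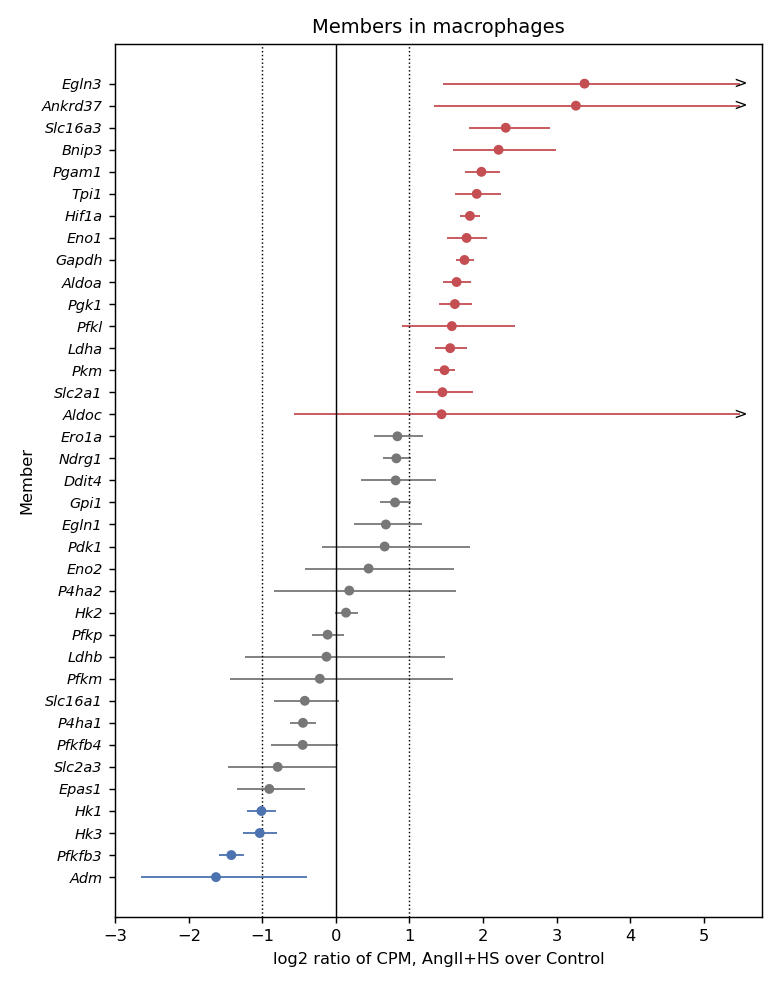
Log2 ratio of each member in macrophages (AngII+HS over Control) with its 95% counting interval; red marks at least 2-fold higher, blue at least 2-fold lower, dotted lines 2-fold, and an arrowhead an interval that runs off the axis. Egln3 at 3.38 is the topmost and Adm at -1.63 the lowest; the Aldoc interval crosses 0.

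Among the transporters, Slc2a1 and Slc16a3 were higher in AngII+HS macrophages. Slc2a1, the widespread glucose transporter GLUT1, was at 26.7 CPM in Control and 73.4 CPM in AngII+HS, a ratio of 1.45 (1.08 to 1.86). Slc16a3, the lactate exporter MCT4, was at 13.6 and 68.3 CPM, a ratio of 2.31 (1.81 to 2.91). Slc2a3, the glucose transporter GLUT3, was at 9.04 and 5.33 CPM, and Slc16a1, the monocarboxylate transporter MCT1, at 23.0 and 17.3 CPM. The intervals of both ratios held 0.

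Glycolysis was represented by enzymes from the hexokinases to lactate dehydrogenase. Of the 18, 10 were at least 2-fold higher and 2 at least 2-fold lower in AngII+HS macrophages, against 9.65% and 18.4% of all genes measured there. Pgam1, a phosphoglycerate mutase, went from 68.7 to 272 CPM (ratio 1.98, 1.75 to 2.23). Tpi1, triosephosphate isomerase, went from 39.8 to 151 CPM (1.92, 1.62 to 2.25), and Eno1, an enolase, from 52.9 to 182 CPM (1.78, 1.52 to 2.06). These steps lay apart between the libraries. Gapdh, which oxidises glyceraldehyde phosphate, was at 255 CPM in Control and 857 CPM in AngII+HS (1.75, 1.63 to 1.87). Aldolase A (Aldoa) was at 112 and 349 CPM (1.64, 1.46 to 1.83), and Pgk1, the first step that yields ATP, at 73.7 and 227 CPM (1.62, 1.40 to 1.86). Pkm, the pyruvate kinase of most tissues, was at 186 and 519 CPM (1.48, 1.34 to 1.62). Ldha, which makes lactate, was at 80.0 and 236 CPM (1.55, 1.34 to 1.78). Pfkl, a phosphofructokinase, rested on 16 Control UMIs, with 7.23 and 22.2 CPM (1.58, 0.90 to 2.44). Gpi1, the isomerase of the upper pathway, was at 87.7 and 153 CPM (0.80, 0.60 to 1.02). Pfkm, Pfkp, Eno2 and Ldhb, forms known from other tissues, had ratios of -0.22 to 0.44 with intervals that held 0. Aldoc, counted among the 10, had 1 UMI in Control and 36 in AngII+HS, and its interval (-0.57 to 7.34) held 0. Near-identical copies of Gapdh, Aldoa, Eno1 and Pgam1 exist in the genome, and reads shared with them could have been lost. Eno1b, the copy of Eno1 with its own row, was at 3.6 and 9.0 CPM.

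The hexokinases, which trap glucose in the cell, did not share this direction over all macrophages, and they differed by cluster as given below. Hk1 measured 118 CPM in the Control macrophages, against 58.6 CPM under AngII+HS (-1.01, -1.21 to -0.81). Hk3, a hexokinase of myeloid cells, was at 89.0 and 43.5 CPM (-1.04, -1.26 to -0.80). Hk2 was at 163 and 179 CPM, with an interval that held 0. TMM scaling brought Hk1 to -0.73 and Hk3 to -0.76, inside 2-fold. Among the regulatory kinases, Pfkfb3, which makes an activator of phosphofructokinase, was at 164 CPM in Control and 61.1 CPM in AngII+HS (-1.42, -1.59 to -1.25). Pfkfb4, its relative, was at 22.1 and 16.3 CPM, and Pdk1, which restrains pyruvate dehydrogenase, at 4.52 and 7.49 CPM, and the intervals of both ratios held 0.

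Of the genes of oxygen sensing, Hif1a went from 210 CPM in Control macrophages to 742 CPM in AngII+HS (1.82, 1.69 to 1.96). Egln3, a prolyl hydroxylase that is itself a hypoxia target, had 1 UMI in Control and 140 in AngII+HS, 0.452 and 7.04 CPM, with a ratio of 3.38 and an interval of 1.46 to 9.27. Egln1, the main oxygen sensor, was at 19.4 and 31.5 CPM (0.68). Epas1, which encodes HIF-2 alpha, was at 22.6 and 12.2 CPM (-0.90, -1.34 to -0.42). Among the other targets, Bnip3, a mitophagy receptor, went from 8.59 to 40.8 CPM (2.21, 1.60 to 2.99). Ankrd37 had 1 UMI in Control and 129 in AngII+HS (3.26, 1.34 to 9.16). Adm, the vasodilator peptide adrenomedullin, was lower, at 4.52 and 1.51 CPM (10 and 30 UMIs; -1.63, -2.66 to -0.39). Over all macrophages, Ero1a, Ndrg1 and Ddit4 had ratios of 0.84, 0.82 and 0.81, with intervals above 0. Their ratios within macrophage clusters are given below, where the intervals for Ero1a and Ddit4 overlapped between clusters. P4ha1, a collagen prolyl hydroxylase, was at 140 and 103 CPM (-0.45), and its relative P4ha2 at 3.16 and 3.82 CPM, with an interval that held 0.

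RNA quality differed between the macrophages of the libraries. Malat1, a transcript kept in the nucleus, was at 31653 CPM in Control and 16304 CPM in AngII+HS. Ribosomal protein genes summed to 67230 and 81289 CPM, and mitochondrial genes took 2.81% and 1.25% of UMIs. Genes of short span were more often higher. Among genes under 20 kb, 13.6% were at least 2-fold higher, and of the 16 members of that span 10 were. Among longer genes, 6.93% were, and of 21 members 6 were. The part of these differences in the members' ratios was not tested. Of 5 markers each, the VSMC list summed to 808 CPM in macrophages of Control and 463 CPM in those of AngII+HS, the fibroblast list to 106 and 462 CPM, and the neutrophil list to 220 and 268 CPM, with none of the markers at 0. With free RNA subtracted the ratio of the sum was 1.14.

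Macrophages fell into clusters formed without the member genes. A cluster led by C1qa, C1qc and C1qb held 451 of the 500 Control macrophages and 2325 of the 4513 in AngII+HS. A cluster led by Arg1, Pf4 and F13a1 held 40 and 2078 cells. Its leading genes were ranked over both libraries together and describe the AngII+HS cells, where Arg1 was at 3552 CPM and Pf4 at 4042 CPM. Its 40 Control cells had 0 Arg1 UMIs of 323326, which allows up to 9.28 CPM, and 1 Pf4 UMI, and they had F13a1 at 1079 CPM. None of the 5 macrophage markers was among the cluster's 10 leading genes, and all 5 were detected in it over both libraries together. Of these markers, C1qa was at 21.7 CPM (7 UMIs) and C1qb at 27.8 CPM (9 UMIs) in the 40 Control cells. They were at 194 and 273 CPM in its AngII+HS cells, and at 2307 and 1867 CPM in Control cells of the C1q-led cluster. The macrophage name is therefore less sure for the 40 Control cells. A small cluster with cycling markers held 9 and 110. The members summed to 1936 CPM in Control and 3005 CPM in AngII+HS in the C1q-led cluster, a ratio of 0.63 (0.58 to 0.69). Some leading genes of this cluster also differed between its libraries, with Mrc1 at 1832 and 610 CPM and F13a1 at 2069 and 366 CPM. C1qa was at 2307 and 2871 CPM in it, and the part of such differences in the ratio was not tested. In the Arg1-led cluster the members summed to 4021 CPM in the Control cells without Arg1 and to 7165 CPM in AngII+HS. This was a ratio of 0.83 (0.75 to 0.91) between cells that differ in the genes the cluster is called by. Both ratios were below the 1.09 of macrophages as a whole, whose cluster makeup differed between the libraries. Some single members also differed by cluster, with only 40 Control cells on the Arg1-led side. In the C1q-led and the Arg1-led cluster, the ratio was 1.17 (0.92 to 1.44) and -0.47 (-0.76 to -0.16) for Ndrg1. It was 0.60 (-0.09 to 1.45) and 3.30 (1.76 to 6.67, from 2 Control UMIs) for Bnip3. For Hk3 it was -1.10 (-1.34 to -0.85) and 0.33 (-0.50 to 1.47), and for P4ha1 -0.69 (-0.88 to -0.50) and 1.06 (0.41 to 1.88). For Hk1 it was -1.13 (-1.35 to -0.91) and -0.28 (-0.86 to 0.44), and for Hk2 -0.14 (-0.31 to 0.04) and 1.05 (0.57 to 1.63). For Ero1a (0.39 and -0.13) and Ddit4 (0.03 and 1.35) the intervals of the clusters overlapped. Hif1a (1.34 and 0.93), Gapdh (1.56 and 1.08), Tpi1 (1.30 and 1.91) and Ldha (1.27 and 1.22) were above 0 in both. So were Pgam1 (1.96 and 0.91), Eno1 (1.62 and 0.63), Slc2a1 (1.31 and 0.70) and Pkm (0.99 and 0.88), with Pkm inside 2-fold in each. For these members, and for Hif1a, Gapdh and Ldha, both ratios were below the one over all macrophages given above.

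Within AngII+HS, 17 of the 37 members were at least 2-fold higher in the Arg1-led than in the C1q-led cluster and 2 were at least 2-fold lower, against 4.53% and 14.3% of 13081 genes. Hif1a was at 1303 CPM in the Arg1-led and 328 CPM in the C1q-led cluster. Egln3 was at 13.6 and 1.75 CPM, Bnip3 at 76.2 and 14.6 CPM, Slc16a3 at 123 and 27.7 CPM, and Ero1a, an oxidase of the endoplasmic reticulum, at 112 and 29.3 CPM. Each of these stood at least 3.81-fold apart. Slc2a3 and Ldhb were the 2 that were lower. Pfkfb3 was at 40.7 and 80.2 CPM, Hk1 at 57.4 and 59.6 CPM, and Hk3 at 40.6 and 47.6 CPM. In Control, Hif1a was at 684 CPM in the 40 cells of this cluster without Arg1 and at 129 CPM in the C1q-led cluster.

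**Figure D3:**
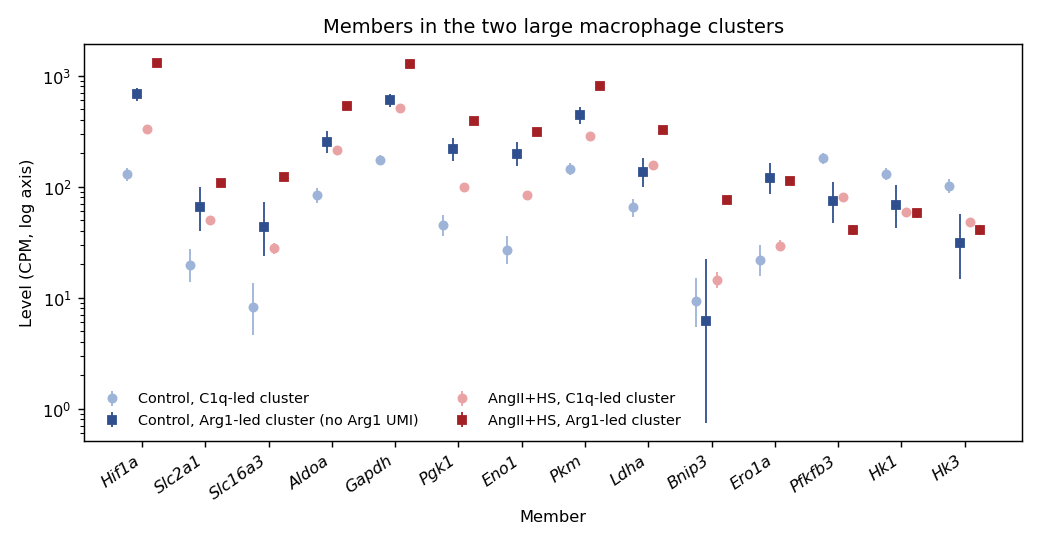
Level of 14 members (CPM, log axis) in the C1q-led and Arg1-led macrophage clusters of each library, with 95% counting intervals; the 40 Control cells of the Arg1-led cluster had no Arg1 UMI. Hif1a runs from 129 CPM in the Control C1q-led cluster to 1303 CPM in the AngII+HS Arg1-led cluster, and Pfkfb3 has the opposite order, from 180 to 40.7 CPM.

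In VSMCs, the contractile cells of the artery wall, 1 member was at least 2-fold higher in AngII+HS and 5 at least 2-fold lower, against 8.57% and 8.72% of 15831 genes (17.3% in either direction). TMM scaling gave 0 higher and 5 lower. Hk2 was at 358 CPM in Control and 162 CPM in AngII+HS (-1.15, -1.23 to -1.06). Both Pfkfb genes were lower, Pfkfb3 at 70.8 and 31.5 CPM (-1.16, -1.37 to -0.97) and Pfkfb4 at 15.1 and 6.11 CPM (-1.29, -1.79 to -0.87). Adm was at 26.9 and 9.80 CPM (-1.45, -1.83 to -1.11). Egln3 was at 4.64 and 1.70 CPM, from 253 and 12 UMIs (-1.39, -2.42 to -0.61), and without doublet removal it was -0.61. Vegfa, the endothelial growth factor and a hypoxia target outside the 37, stood beside them at 62.3 and 28.1 CPM (-1.14). Of the 18 enzymes 13 had a ratio above 0, all inside 2-fold, among them Gapdh (367 and 529 CPM), Pkm (192 and 294 CPM), Pgk1 (46.1 and 74.1 CPM) and Eno1 (46.5 and 70.9 CPM), with ratios of 0.53 to 0.69. Tpi1 was at 110 and 112 CPM (0.02), and Ldhb was at 66.7 and 45.03 CPM (-0.56, -0.74 to -0.40). Slc16a3 was at 8.24 and 16.8 CPM (1.03, 0.72 to 1.32). Beside this ratio, the 5 neutrophil markers summed to 5.59 and 172 CPM in VSMCs, with none at 0, and the ratio of Slc16a3 with free RNA subtracted was 0.93. Of the 8 hypoxia targets 7 had a ratio below 0, and their sum was 660 CPM in Control and 500 CPM in AngII+HS. The 31 members within 2-fold in VSMCs had ratios of -0.91 (Slc16a1) to 0.97 (Slc2a3). The makeup of VSMCs differed between the libraries, and 175 of 5228 cells in Control but 217 of 846 in AngII+HS were in a cluster led by Pln. Slc2a3 was at 23.3 and 53.6 CPM in it, and at 6.25 and 5.91, 4.490 and 4.499, and 10.2 and 10.0 CPM in the other 3 clusters. Across the 4 VSMC clusters, the member sum was 3227 to 3822 CPM in Control and 3162 to 3895 CPM in AngII+HS.

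In fibroblasts, which lay down matrix in the adventitia, 1 of 36 members was at least 2-fold higher and 1 at least 2-fold lower, against 7.45% and 8.37% of 15881 genes (15.8% in either direction). TMM scaling gave 5 higher and 1 lower. Slc16a3 was at 2.66 CPM in Control and 7.18 CPM in AngII+HS (1.41, 0.84 to 2.08). Beside it, the 5 neutrophil markers summed to 8.79 and 183 CPM in fibroblasts, with none at 0, and their part was not tested. With free RNA subtracted the ratio was 1.13. Over all fibroblasts, Adm was at 93.4 and 37.2 CPM (-1.33, -1.46 to -1.20). Fibroblasts had the highest Hk2 and Adm of the types with 100 or more cells in both libraries, although for Adm in AngII+HS the interval of lymphatic endothelial cells overlapped. Hk2 was at 542 and 654 CPM. The larger share of the fibroblast ratio came from genes inside 2-fold, Hif1a (212 and 388 CPM), Ndrg1 (265 and 484 CPM), Gapdh (195 and 341 CPM) and Pkm (92.1 and 164 CPM), with ratios of 0.81 to 0.87. Cluster makeup differed here too, with 394 of 2609 cells in Control and 2112 of 4720 in AngII+HS in a cluster led by Dcn, Mmp3 and Sfrp4. In that cluster Hif1a was at 305 and 518 CPM and Ndrg1 at 372 and 659 CPM. Hif1a was also higher in a cluster led by Clec3b, Dcn and Has1, at 169 and 292 CPM. In a cluster led by Dcn, Serpinf1 and Fbln1 it was at 137 and 168 CPM, with overlapping intervals. In a cluster led by Dcn, Lum and Mmp3 Hif1a was lower, at 221 and 183 CPM. Ndrg1 was higher in AngII+HS in each of these clusters. Adm did not keep one direction, and was higher in the cluster led by Dcn, Lum and Mmp3, at 31.3 and 49.5 CPM. It was lower in the cluster led by Dcn, Mmp3 and Sfrp4, at 87.7 and 19.3 CPM. It was also lower in those led by Clec3b (167 and 96.1 CPM) and by Dcn, Serpinf1 and Fbln1 (59.3 and 21.8 CPM). The 34 members within 2-fold in fibroblasts ran from -0.83 (Pfkfb4) to 0.88 (Pfkl). All 4 fibroblast clusters present in both libraries had a higher member sum in AngII+HS. A cluster led by Prg4, Timp1 and Mmp3, with 161 cells in AngII+HS and 1 in Control, had the highest sum in AngII+HS, 4363 CPM.

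In VECs, the lining of the vessel, 4 of 36 members were at least 2-fold higher and 1 at least 2-fold lower, against 7.93% and 5.93% of 13153 genes (13.9% in either direction). Gapdh was at 179 CPM in Control and 468 CPM in AngII+HS (1.39, 1.27 to 1.50). Pgk1 was at 36.5 and 95.5 CPM (1.39, 1.13 to 1.65), and Pkm at 101 and 231 CPM (1.19, 1.04 to 1.35). Slc16a3 was at 3.92 and 8.56 CPM, from 17 and 53 UMIs (1.10, 0.31 to 2.01), and its ratio was 0.82 with free RNA subtracted. The neutrophil markers summed to 11.1 and 192 CPM in VECs, with Cxcr2 at 0 in Control, and their part was not tested. Hif1a, at 168 and 327 CPM (0.96), fell just inside 2-fold. The 31 members within 2-fold in VECs ran from -0.69 (P4ha1) to 0.96. P4ha2, the collagen prolyl hydroxylase, was at 69.5 and 33.0 CPM (-1.07, -1.34 to -0.81). Epas1 had its highest level in VECs in both libraries, 839 CPM in Control and 562 CPM in AngII+HS (-0.58, -0.65 to -0.51). Malat1 was at 30475 and 20410 CPM in VECs, and the part of this in the ratios was not tested. Cluster makeup differed in VECs too, with 341 of 838 cells in Control and 806 of 1203 in AngII+HS in a cluster led by Selp. Selp is a venous adhesion molecule, and Gpihbp1 and Fabp4 were also among the leading genes of this cluster. It had member sums of 3410 and 3820 CPM, and the cluster led by Cytl1 had 3211 and 3185 CPM. The VEC ratios above are pooled over both clusters, and the part of the makeup in them was not tested.

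Neutrophils depend on glycolysis, since they hold few mitochondria. In Control the comparison rested on 99 cells. Of 33 members with enough UMIs, 7 were at least 2-fold higher and 2 at least 2-fold lower in AngII+HS, against 27.3% and 12.4% of 9980 genes (39.6% in either direction). TMM scaling gave 13 higher and 1 lower. Of the 7, Slc16a1, Pfkl, Eno2 and Pdk1 had no UMI in Control, which allows up to 11.04 CPM. Against that limit, Pfkl was at least 1.18-fold higher, at 13.0 CPM in AngII+HS, and the other 3 were below the limit. With these members at their bounds the median ratio was -0.27 in place of 0.08, and 3 members were at least 2-fold higher. Gpi1, which interconverts glucose and fructose phosphates, was at 305 CPM in Control and 91.4 CPM in AngII+HS (-1.75, -2.08 to -1.39), and Pfkfb4 at 110 and 51.5 CPM (-1.12, -1.64 to -0.51). Bnip3 was at 14.7 and 38.3 CPM, from 4 Control UMIs (1.21, 0.0041 to 3.27), and P4ha1 at 25.8 and 58.3 CPM, from 7 (1.08, 0.12 to 2.50). Hif1a was at 854 and 517 CPM (-0.73, -0.92 to -0.52). The 5 neutrophil markers summed to 126273 CPM in Control and 45632 CPM in AngII+HS, and their part in these ratios was not tested. In AngII+HS neutrophils held the highest Slc2a1, Slc2a3, Slc16a3, Hk3, Pfkfb4, Egln3 and Ero1a of the 12 types, 225 CPM for Slc16a3 against 68.3 CPM in macrophages. For Egln3 the interval overlapped that of T cells.

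**Figure D4:**
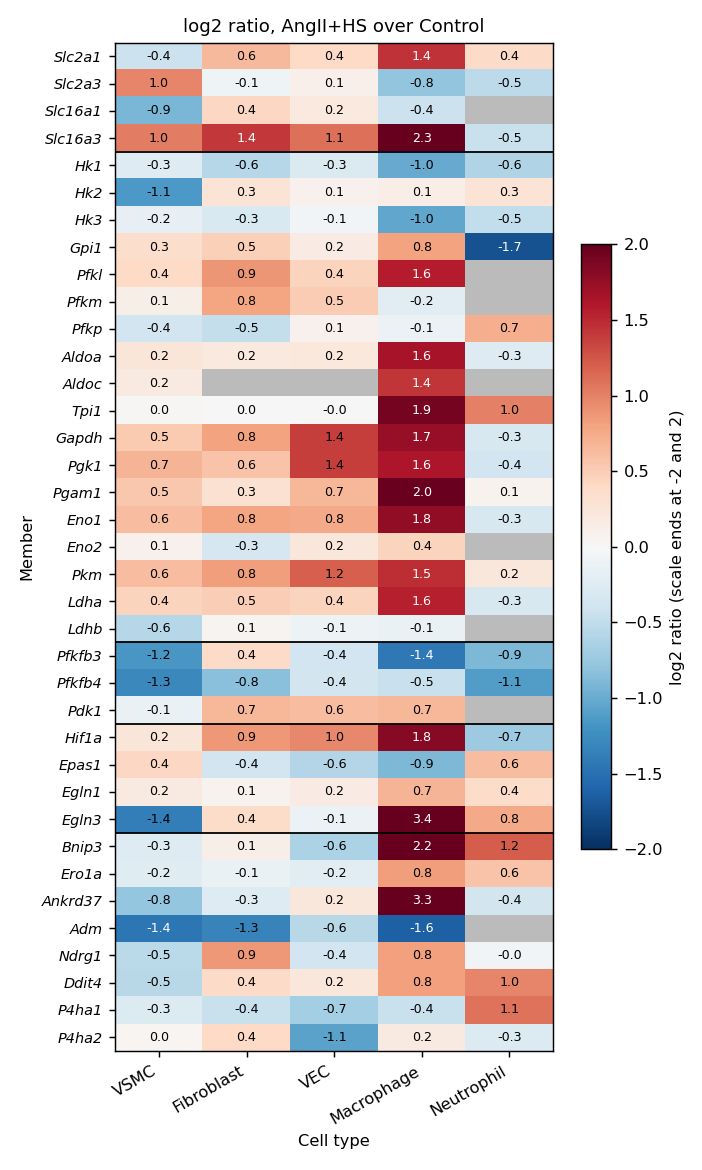
Log2 ratio (AngII+HS over Control) of each member in the 5 main cell types, rows grouped by role; grey marks members with under 20 UMIs over both libraries or with none in 1 library. Red runs through the lower glycolytic enzymes in macrophages, as for Pgam1 at 1.98, and blue marks Adm and the Pfkfb genes in VSMCs.

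Of the 33 members measured in all 5 main types, Pfkl, Pgam1, Pkm and Egln1 had a ratio above 0 in each, and Hk1, Hk3 and Pfkfb4 had one below 0 in each. In neutrophils Pfkl had 0 UMIs in Control and 81 in AngII+HS. It therefore counted as measured there through AngII+HS alone, and its ratio rested on the 0.5 UMI added. The interval left out 0 in 4 of the 5 types for Pfkl, Pgam1, Pkm and Hk1. It did so in 3 for Pfkfb4, in 2 for Egln1 and in 1 for Hk3. The share of all genes with the same direction in every main type was not computed. Slc16a3 was at least 2-fold higher in VSMCs, fibroblasts, macrophages and VECs, and had a ratio of -0.45 in neutrophils. No other member was that much higher in 3 or more of the 5 types. With free RNA subtracted, Slc16a3 came inside 2-fold in VSMCs and VECs, and with TMM scaling it did so in VSMCs. Of the 37 members 17 were at least 2-fold higher in none, and 20 were in 1 or more, among which the neutrophil members at 0 in Control are included. The like share of all genes over the 5 types was not computed, and in neutrophils alone 27.3% of genes were that much higher. The count of 20 is therefore no result about the members.

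Smaller populations were counted on few cells. In T cells, 3 of 28 members were at least 2-fold higher and 0 lower, against 9.46% and 3.87% of 9534 genes, and Hif1a was at 211 CPM in Control and 485 CPM in AngII+HS (1.20, 0.94 to 1.48). In dendritic cells, from 32 Control cells, 9 of 25 were higher and 1 lower, against 16.9% and 14.1% of 8288 genes, and 3 of the 9 had no Control UMI. Gapdh was at 190 and 563 CPM there (1.54, 1.04 to 2.14). In lymphatic endothelial cells 4 of 26 were higher, among them Gapdh (161 and 385 CPM), and 1 was lower, against 7.78% and 3.99% of 8638 genes. In B cells 3 of 26 were higher and 2 lower, against 9.81% and 4.87% of 8768 genes. In neural cells 2 of 30 were higher and 0 lower, against 5.88% and 4.21% of 8948 genes. Neural cells had the highest Aldoc and Ldhb in both libraries, with Aldoc at 57.3 and 58.9 CPM. Ndrg1, a gene known from myelinating cells, was also highest there, at 1087 and 738 CPM, with overlapping intervals to lymphatic endothelial cells. In the cluster named erythroid, with 39 Control cells, 12 of 16 members were higher and 0 lower, against 65.7% and 4.45% of 4157 genes, so the members stood near the background there.

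Other genes of both pathways were taken from lists of 30 for glucose metabolism and 32 for hypoxia. In macrophages, 1 of 21 measured genes of the first list was at least 2-fold higher and 3 lower, with a median ratio of -0.01. Of 28 measured genes of the hypoxia list 8 were higher and 4 lower, with a median of 0.07. Vegfa was at 8.59 CPM in Control and 193 CPM in AngII+HS (4.45, 3.85 to 5.23), from 19 and 3843 UMIs. Hilpda, a lipid droplet protein, was at 64.6 and 356 CPM (2.46), and Mif, a cytokine, at 33.9 and 281 CPM (3.04). Slc16a7, the monocarboxylate transporter MCT2, was lower, at 52.0 and 17.1 CPM (-1.60). In VECs 6 of 29 hypoxia genes were higher and 4 lower, in fibroblasts 5 of 31 and 4, and in VSMCs 1 of 32 and 5. In neutrophils 11 of 23 were higher and 1 lower, with a median of 0.98, from 99 Control cells. Any genes of this list without a Control UMI were not set to the limit used for the members. That step lowered both the median and the number higher among the members, so these neutrophil values are uncertain. The shares of all genes higher and lower were 9.65% and 18.4% in macrophages and 7.93% and 5.93% in VECs. They were 7.45% and 8.37% in fibroblasts, 8.57% and 8.72% in VSMCs, and 27.3% and 12.4% in neutrophils. Hilpda was at least 2-fold higher in VSMCs, fibroblasts and VECs, at 9.02 and 23.9 CPM in VSMCs, 15.9 and 41.8 CPM in fibroblasts and 21.2 and 70.3 CPM in VECs.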

How the data were processed

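Cells of abdominal aortas were captured with the 10x Single Cell 3' kit v3.1, and the deposited matrices hold raw UMI counts per gene and barcode, made by the authors with Cell Ranger (8.0.1 in the matrix header, 7.0 in the methods). The build is GRCm39 in the methods and mm10 in the labels, so gene locations in the files' build were not printed, and promoter windows are given in the RefSeq build GRCm38.p6. The members and lists were chosen with earlier results of these data known. The minimum per barcode was 500 UMIs and 200 genes, with mitochondrial transcripts below 20%, which left 11288 of 11448 in Control and 24560 of 24804 in AngII+HS. Doublets were called with Scrublet in scanpy 1.11.5 at 0.8% per 1000 cells, and 1019 and 4826 barcodes were removed. Cells were integrated and clustered in Seurat 5.3.0 (2000 variable genes without the members, 30 components, resolution 0.8). Clusters took the name of the type that scored highest on its 5 markers. They stayed unnamed where fewer than 3 of these were detected, where another type had 1 or more markers among the 10 leading genes and no fewer than the type itself, or where cells shallow for their library had none of its markers there. How leading genes were ranked was settled after the clusters had been seen, and 24 of 26 clusters were named.

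Within each library the UMIs of a cell type were added up, 75294050 in Control and 80581691 in AngII+HS over all kept cells, and divided by the type's total to give CPM with exact Poisson intervals. Log2 ratios of single members used 0.5 UMI added to each count and exact conditional binomial intervals (scipy 1.17.1), and those of sums used none. Intervals and limits from a count of 0 (3 UMIs) cover counting error only. A member or gene was counted as higher or lower at 2-fold where it had at least 20 UMIs over both libraries. No p-value was computed. Named members are those at least 2-fold apart with an interval leaving out 0, and the 5 with most UMIs per library. On simulated macrophage counts for 13855 genes with 200 changed 2-fold, the direction was right for 94.5% and 96% of the changed genes had their simulated ratio inside the interval. The simulated counts held counting error only, as the intervals assume, so this checks the calculation and not the spread between cells or mice. Alternatives were other doublet, filter, integration, resolution, scaling (edgeR 4.0.16 for TMM), weighting, free-RNA, pseudocount and low-count choices. Gene spans came from GENCODE, which matched 98.5% of identifiers.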

Additional observations from a re-analysis of the deposited data

Results flagged for a closer look

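Egln3 was at least 2-fold apart in opposite directions in 2 of the main cell types. Its ratio was 3.38 in macrophages, from 1 UMI in Control and 140 in AngII+HS, and -1.39 in VSMCs, from 253 and 12 UMIs. Without doublet removal the VSMC ratio kept its direction but came inside 2-fold, as given above. The difference between the 2 cell types was not tested, since each condition was 1 library. The remaining members that were at least 2-fold apart in more than 1 main type, with intervals leaving out 0, had the same direction in each.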

How the results depend on the processing

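Of the sums over the members, TMM scaling turned the ratio to -0.025 in VSMCs and 0.35 in neutrophils, and gave 0.55 in fibroblasts, 1.37 in macrophages and 0.085 in VECs, moving with the median gene by construction. Without doublet removal the VSMC ratio was 0.029, and scaled to nuclear genes it was 0.028. Equal weight per cell gave 1.16 in macrophages and subtracting free RNA 1.14. All other alternatives left these sums within the counting interval. Members past 2-fold numbered 2 in fibroblasts, and 4 without doublet removal, 6 with TMM scaling and 5 with equal weight per cell. In neutrophils they numbered 9, and 14 with TMM scaling and 4 with 1 UMI added. Counts in VSMCs (4 to 7), macrophages (19 to 23) and VECs (4 to 5) stayed within 1.5 times. Of 36 single ratios named at 2-fold, none changed direction, and 0 to 5 came inside 2-fold under any alternative, most with doublets kept. Slc16a3 in VSMCs and Hk1 in macrophages did so most often. No paired analysis was possible because each condition was 1 library, and no library could be left out. Members with few Control UMIs, such as Egln3, Ankrd37 and Aldoc in macrophages and most in the 99 Control neutrophils, are limited by depth.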
